A study of Mus musculus with 8 samples.

Results

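The replication-dependent histone genes of the mouse were described across 6 CUT&Tag peak lists. Members were the protein-coding genes on chromosomes 13 and 3 whose symbols mark them as H1, H2A, H2B, H3 or H4 genes of the clustered kind (H1f1 to H1f6, and the H2ac, H2bc, H3c and H4c series). The rule found 63 of the 21887 protein-coding genes: 6 for H1, 17 for H2A, 16 for H2B, 12 for H3 and 12 for H4. H2ac14 has a symbol of this kind but is annotated as a pseudogene and was left out. The same symbols occurred at 0 protein-coding genes of other chromosomes. A gene was counted as carrying a peak when any base of the peak lay within 1 kb of either annotated end. Gene spans are those of RefSeq for GRCm38.p6, which has the coordinates of mm10, the build of the lists.

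The cells were iMOPs, wild-type immortalized multipotent otic progenitors, a mouse line used as a model of inner ear progenitors, so every library came from 1 line. They were either kept proliferating with bFGF at 20 ng/ml or differentiated into neurons in medium with K03861 at 1 µM, an inhibitor of the kinase CDK2. In CUT&Tag a transposase tethered to an antibody tags the DNA around the target, and SEACR lists the stretches where tagged fragments pile up. CHD4 (the motor subunit of NuRD, a complex that moves nucleosomes and removes acetyl groups), H3K4me3 (trimethylation found at active promoters) and p300 (a histone acetyltransferase) were profiled with 1 library of 500000 cells for each antibody and state. The 2 IgG libraries were not analysed here, so the values have no antibody background to be set against. Each group is 1 library, so differences between the states are described without replicates and none was tested.

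Replication-dependent histone genes supply the histones that package newly copied DNA, and most of their transcription takes place in S phase. They are short, mostly lack introns, and lie in clusters that gather in nuclear bodies with the transcription factor NPAT, a substrate of cyclin E and CDK2. Their messenger RNAs end in a stem-loop bound by SLBP instead of a poly(A) tail. Cells that leave the cycle largely stop making these RNAs, while replication-independent histones encoded elsewhere continue to be made. The many copies of each core histone gene encode nearly the same protein.

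Among cell type markers, H3K4me3 was listed most often at those of cycling cells. The mark, listed at 37.6% of all genes in proliferating cells and 30.0% in neurons, lay at 5 of 6 cycling markers in both states. It lay at 5 and 3 of 8 otic progenitor markers, and the neuron count is near the share of all genes. The otic progenitor markers Pax2, Pax8 and Gata3 were in no list. Of the 8 neuron markers, Tubb3 (a neuronal tubulin) and Map2 carried peaks, with H3K4me3 in both states. Neurod1, Dcx, Rbfox3, Isl1, Pou4f1 and Prph were in no list. Markers of glia and mesenchyme were in no list, and of the 4 blood markers 1, Cd68, was listed. The lists held 4919 and 4599 CHD4 peaks in proliferating cells and neurons, 7472 and 5625 H3K4me3 peaks, and 3144 and 965 p300 peaks. Read depth is unknown, and the lists give no peak below a lowest total signal, so an unlisted gene may carry signal that was not listed.

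CHD4 was listed at most histone genes in both states. In proliferating cells 49 of 63 members carried a CHD4 peak (77.8%, exact 95% interval 65.5 to 87.3), against 11.8% of all protein-coding genes. In neurons 52 of 63 did (82.5%, 70.9 to 90.9), against 9.95% of all genes. The histone genes are short, so their windows are small: of the 2525 other genes of at most 2 kb, 2.85% and 2.77% carried CHD4, and 7.96% and 6.30% carried H3K4me3, in proliferating cells and neurons. The intervals cover counting error only, and since neighbouring genes share peaks they are too narrow.

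With the full lists, H3K4me3 and p300 were listed at fewer histone genes in neurons than in proliferating cells. For H3K4me3 the order depended on the weaker peaks: with the stronger 50% of each list it lay at 16 members in proliferating cells (21.1% of all genes) and 21 in neurons (16.5%). In the full lists H3K4me3 lay at 39 members in proliferating cells (61.9%, 48.8 to 73.9, against 37.6% of all genes) and at 25 in neurons (39.7%, 27.6 to 52.8, against 30.0%). The neuron share is close to that of all genes. For p300 the counts were 47 members in proliferating cells (74.6%, 62.1 to 84.7, against 8.44% of all genes) and 19 in neurons (30.2%, 19.2 to 43.0, against 1.24%). The neuron p300 list was also the shortest of the 6. With the 2 lists of each antibody trimmed to the same number of peaks, p300 was listed at 35 and 19 members (2.73% and 1.24% of all genes), H3K4me3 at 26 and 25 (29.7% and 30.0%), and CHD4 at 49 and 52 (10.9% and 9.95%).

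**Figure D1:**
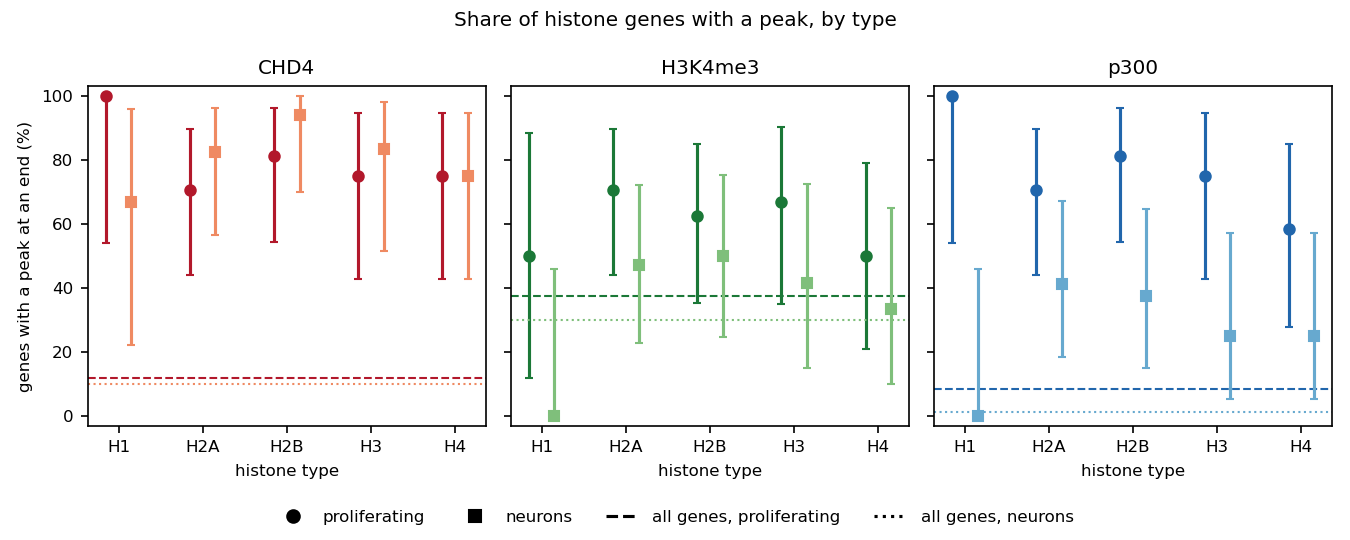
Percent of the genes of each histone type with a peak within 1 kb of a gene end (y axis) for CHD4, H3K4me3 and p300; circles are proliferating cells, squares are neurons, bars are exact 95% intervals over genes, and dashed and dotted lines are the shares of all protein-coding genes. All 5 types sit far above the lines for CHD4 in both states, while for H1 the neuron H3K4me3 and p300 shares are 0.

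The promoters below show what lies under these peaks: for each histone type the member with the strongest proliferating CHD4 peak, and then H2bc1, a testis-specific H2B gene that was in none of the lists. Each window runs from 250 bases before the RefSeq transcript start to 50 after it (GRCm38.p6), printed on the strand of the gene. H1f1 is at chr13:23763418-23763717 (plus strand), H2ac11 at chr13:22042900-22043199 (minus), H2bc11 at chr13:22042948-22043247 (plus), H3c10 at chr13:21717378-21717677 (plus), H4c9 at chr13:22041313-22041612 (minus) and H2bc1 at chr13:23934107-23934406 (minus). H2ac11 and H2bc11 are a divergent pair, so most of their windows is the same DNA read from opposite strands. H2ac12 and H2bc12 lie under the same proliferating CHD4 peak, so they tie with the pair printed. Capitals mark matches on either strand. The letters CCAAT form a box known to be bound by the factor NF-Y. The letters TATAAA are those of a TATA box, which positions the transcription machinery. The octamer ATTTGCAT is recognised by POU2F1, a POU-domain factor known from H2B promoters. The letters GGTCCG form the core of an element of H4 promoters recognised by HINFP.
H1f1: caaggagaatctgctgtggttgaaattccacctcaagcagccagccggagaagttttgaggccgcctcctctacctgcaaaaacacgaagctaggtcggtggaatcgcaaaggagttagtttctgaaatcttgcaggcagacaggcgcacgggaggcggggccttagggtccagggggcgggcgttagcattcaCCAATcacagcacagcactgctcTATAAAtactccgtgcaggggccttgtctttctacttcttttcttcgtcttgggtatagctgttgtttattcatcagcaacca
H2ac11: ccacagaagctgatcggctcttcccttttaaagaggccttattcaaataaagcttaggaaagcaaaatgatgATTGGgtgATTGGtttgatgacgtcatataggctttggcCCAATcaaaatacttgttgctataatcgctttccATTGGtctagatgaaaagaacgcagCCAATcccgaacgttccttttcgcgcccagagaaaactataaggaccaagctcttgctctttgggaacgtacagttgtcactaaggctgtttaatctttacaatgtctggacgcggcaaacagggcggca
H2bc11: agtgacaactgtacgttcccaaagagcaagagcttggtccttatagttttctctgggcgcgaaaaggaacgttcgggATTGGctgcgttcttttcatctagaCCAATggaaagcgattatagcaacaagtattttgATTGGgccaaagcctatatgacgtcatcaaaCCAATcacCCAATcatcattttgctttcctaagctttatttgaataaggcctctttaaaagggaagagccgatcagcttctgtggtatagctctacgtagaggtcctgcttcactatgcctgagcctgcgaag
H3c10: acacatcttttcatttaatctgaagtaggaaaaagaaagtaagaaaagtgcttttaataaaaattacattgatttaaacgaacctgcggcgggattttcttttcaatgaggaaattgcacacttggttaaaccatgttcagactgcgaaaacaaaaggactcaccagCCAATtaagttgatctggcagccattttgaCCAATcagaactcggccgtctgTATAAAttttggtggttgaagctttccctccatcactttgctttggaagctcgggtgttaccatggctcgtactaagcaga
H4c9: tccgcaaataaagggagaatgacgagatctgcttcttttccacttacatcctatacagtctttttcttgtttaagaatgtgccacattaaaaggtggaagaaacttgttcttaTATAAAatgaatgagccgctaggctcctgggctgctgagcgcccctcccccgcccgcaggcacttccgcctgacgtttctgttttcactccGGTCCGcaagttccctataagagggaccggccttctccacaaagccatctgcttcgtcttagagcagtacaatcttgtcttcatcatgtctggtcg
H2bc1: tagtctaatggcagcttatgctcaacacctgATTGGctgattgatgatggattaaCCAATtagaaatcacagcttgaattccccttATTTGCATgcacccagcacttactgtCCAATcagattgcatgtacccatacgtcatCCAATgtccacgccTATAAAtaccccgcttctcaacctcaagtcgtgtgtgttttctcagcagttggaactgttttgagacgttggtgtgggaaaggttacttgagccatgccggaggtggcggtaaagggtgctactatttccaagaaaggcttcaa
Such elements were common in the windows of the 58 members found in the promoter table. H3c7, H2bc4, H3c1, H2bc21 and H4c14 had no entry. Counting either strand, CCAAT was present in 50 of 58 windows (86.2%, against 37.4% of the 32851 promoters in the table), in every H1, H2A, H2B and H3 window and in 3 of 11 H4 windows. TATAAA was present in 34 (58.6%, against 13.6%). The octamer was found in 6 of 17 H2A windows and 7 of 14 H2B windows, in none of the other types, and in 1.74% of all promoters. TATAAA and the octamer were both present in the windows of H2ac12 and H2bc12, and neither in those printed for H2ac11 and H2bc11. GGTCCG was found in 10 of 11 H4 windows, in H2bc9 and H3c11, and in 8.25% of all promoters. AAACACAAA, the AC box described in H1 promoters, was in the windows of H1f6, H2ac4 and H2bc14 only (0.767% of all promoters). None of these matches overlapped another in the 6 windows printed, and a match is a description, not a bound site. H2bc1, which carried no peak, had 4 CCAAT matches, an octamer match and a TATAAA match, so these letters were also present at a member without a peak. Relative to the annotated start, TATAAA began at -94 in H2bc1 and -137 in H4c9, and at -33 in H1f1 and -31 in H3c10.

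The peaks covered the promoter windows themselves. The proliferating CHD4 peaks wholly covered 42 of the 58 windows (72.4%), against 9.80% of the 17492 protein-coding genes with a window in the table, and the neuron CHD4 peaks covered 44 (75.9%, against 7.79%). The H3K4me3 peaks covered 35 windows in proliferating cells (60.3%, against 37.1%) and 22 in neurons (37.9%, against 29.3%). For p300 the counts were 36 (62.1%, against 6.70%) and 16 (27.6%, against 0.732%).

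The members fall into 5 runs with gaps of at most 0.1 Mb, numbered here in genome order. Clusters 1 to 4 lie on chromosome 13 and hold 17, 5, 29 and 2 genes, and cluster 5, on chromosome 3, holds 10. Cluster 1 spans 118 kb, cluster 2 8.54 kb, cluster 3 233 kb, cluster 4 1.19 kb and cluster 5 50.3 kb. In all 6 lists every peak that touched one of these spans reached a member. The other protein-coding gene within them, Hfe (an iron regulator in cluster 3, chr13:23702034-23710854), carried no peak in any list.

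**Figure D2:**
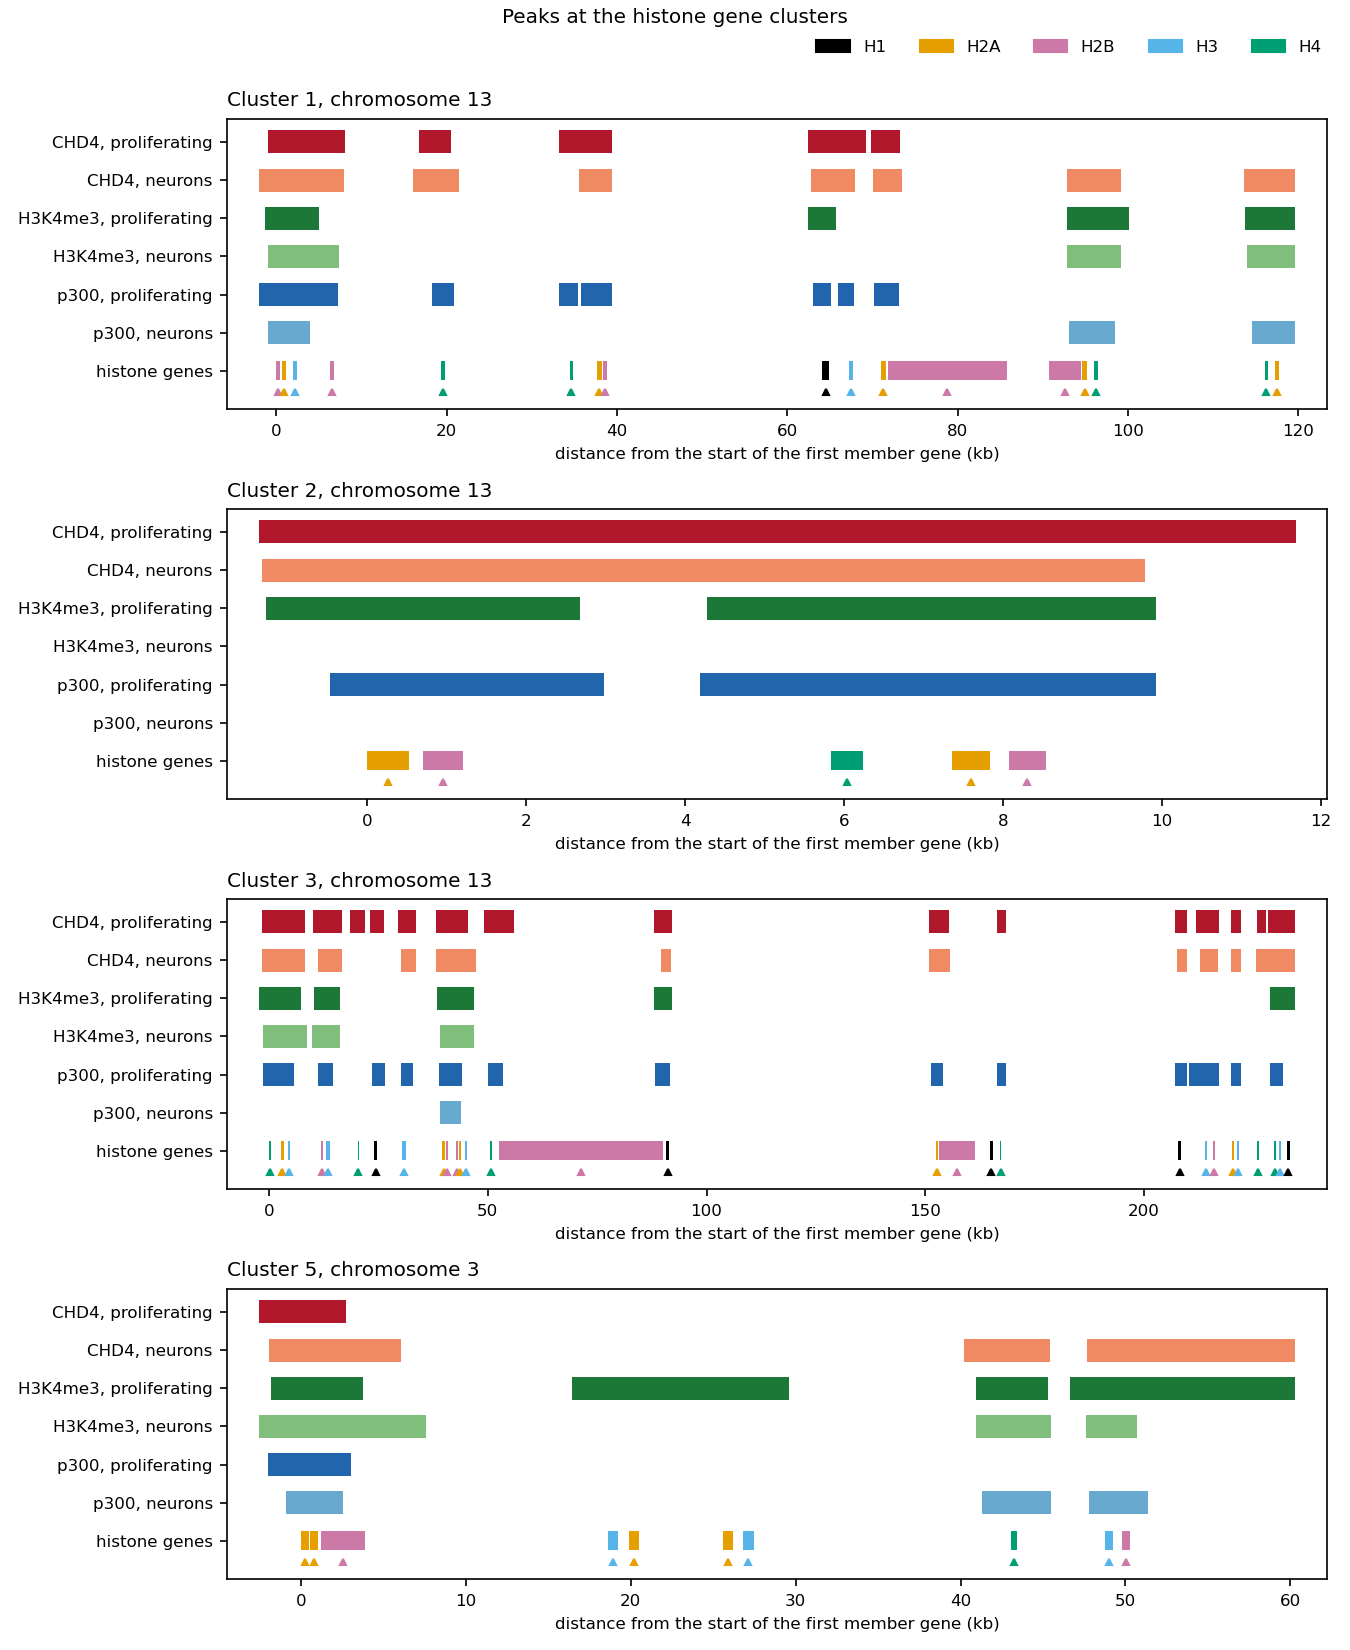
Peaks of the 6 lists (bars, upper 6 tracks) and histone genes (lowest track, with a triangle under each gene, coloured by type) along clusters 1, 2, 3 and 5; the x axis is the distance in kb from the start of the first member, and cluster 4, with no peak, is not drawn. CHD4 peaks lie over genes of each of the 4 clusters, neuron p300 peaks are missing from cluster 2, and the right side of cluster 1 and of cluster 5 has neuron CHD4 without proliferating CHD4.

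Cluster 1 (chr13:21715711-21833475) divided into a stretch with CHD4 in both states and a stretch with CHD4 in neurons only. CHD4 was listed at 12 of its 17 genes in proliferating cells and at all 17 in neurons. At its left end H2bc13, H2ac13 and H3c10 were in all 6 lists: their shared peaks ranked at the 99.1st percentile of total signal among proliferating CHD4 peaks and at the 94.9th among neuron ones, at the 22.1st and 61.5th for H3K4me3, and at the 97.7th and 17.8th for p300. A percentile here is the rank of a peak within its own list, and ranks from lists of different length show no change between states. H2bc14, next to them, shared the CHD4 peaks and was the 1 member with H3K4me3 in neurons only (0.612% of all genes); the nearest proliferating H3K4me3 peak lay 1344 bp away, just outside the window.

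The middle of cluster 1 carried CHD4 in both states with little H3K4me3. H4c11, H4c12, H2ac15, H2bc15, H3c11, H2ac22 and H2bc22 had no H3K4me3 peak in either state and carried p300 in proliferating cells only. Their proliferating CHD4 peaks ranked between the 82.4th percentile (H4c11) and the 97.1st (H4c12, H2ac15 and H2bc15, under 1 peak of 6200 bp). H1f5, a linker histone gene in the same stretch, carried CHD4 in both states (96.4th and 76.7th percentiles), p300 in proliferating cells (73.9th) and H3K4me3 in proliferating cells (16.4th).

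At the right end of cluster 1, H2bc23, H2ac23, H4c17, H4c18 and H2ac24 carried neuron but not proliferating CHD4. The neuron CHD4 peak of H2bc23, H2ac23 and H4c17 was 6350 bp wide (93.7th percentile), and that of H4c18 and H2ac24 was 6050 bp wide (93.1st). All 5 genes carried H3K4me3 in both states (77.9th and 50.6th percentiles for the first group, 45.9th and 26.3rd for the second) and p300 in neurons only (37.7th and 27.4th). The nearest proliferating CHD4 peak lay 17.4 kb from H2bc23 and 44.0 kb from H2ac24.

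Cluster 2 (chr13:22035122-22043658) was covered along its whole length by a single CHD4 peak in each state. The proliferating peak, chr13:22033751-22046800, was 13050 bp wide and ranked at the 99.8th percentile, the highest rank among the CHD4 peaks at members. The neuron peak was 11100 bp wide (96.0th percentile). H2ac12, H2bc12, H4c9, H2ac11 and H2bc11 also all carried proliferating H3K4me3 (7.16th percentile for H2ac12 and H2bc12, 35.7th for the other 3) and proliferating p300 (87.8th and 96.0th). Neither H3K4me3 nor p300 was listed at any of the 5 in neurons.

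Cluster 3 (chr13:23531044-23764412), the largest, carried proliferating CHD4 at all 29 genes and neuron CHD4 at 24. H3K4me3 was listed at 15 genes in proliferating cells and 10 in neurons, and p300 at 27 and 5. H2ac8, H2bc8, H2bc7, H2ac7 and H3c4 were the 5 genes of this cluster in all 6 lists, and 1 peak per list reached all of them. H3c4 lay outside both p300 peaks and was counted because they ended within the window, 513 bp away in the proliferating list and 863 bp in the neuron list. The CHD4 peaks were 7400 and 9100 bp wide (98.6th and 94.0th percentiles), the H3K4me3 peaks ranked at the 46.4th and 59.9th, and the p300 peaks at the 94.8th and 26.0th. H4c8, H2ac10 and H3c8 (95.9th and 88.2nd percentiles for CHD4) and H2bc9 and H3c7 (89.2nd and 40.5th) carried CHD4 and H3K4me3 in both states and p300 in proliferating cells only.

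The remaining genes of cluster 3 carried H3K4me3 in proliferating cells only or in neither state. H2bc6, H1f4, H4c1, H3c1 and H1f1 had proliferating H3K4me3 only, all at low ranks (2.06th percentile for H2bc6 and H1f4, 8.66th for the other 3), beside CHD4 in both states and proliferating p300. H2bc6 is annotated with a span of 37455 bp that ends near H1f4, so it shares the peaks there. H3c6, H2ac6, H2bc4, H1f2, H3c3, H2bc3, H2ac4 and H3c2 carried CHD4 in both states and proliferating p300 with no H3K4me3. Their proliferating CHD4 ranks ran from the 57.5th percentile (H3c6) to the 92.2nd (H2ac6 and H2bc4), and their p300 ranks reached the 82.0th (H2ac6 and H2bc4). H4c2 carried CHD4 alone in both states (62.8th and 88.4th); a p300 peak lay 2465 bp away.

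The 5 members with CHD4 in proliferating cells only all lay in cluster 3 (7.94%, 2.63 to 17.6, against 4.27% of all genes). They were the H4 genes H4c6, H4c4 and H4c3, the linker histone gene H1f3 and H1f6, a linker histone gene of the testis. H4c6 had the weakest proliferating CHD4 peak of all members (17.6th percentile) and was in no other list. H1f3 carried CHD4 at the 85.3rd percentile and p300 at the 75.0th. H4c4 carried CHD4 at the 89.7th and p300 at the 31.0th. H1f6 and H4c3 shared a CHD4 peak (65.1st) and a p300 peak (38.4th) that lay over H4c3; the peaks began 806 bp beyond the end of H1f6, so H1f6 was counted through its neighbour. None of the 5 had H3K4me3 in either state. Their nearest neuron CHD4 peaks lay between 3.32 kb (H4c4) and 11.5 kb (H4c3) away, and with the stronger 50% of each list 14 members had CHD4 in proliferating cells only (2.03% of all genes).

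Cluster 4 (chr13:23933725-23934913) holds H2bc1 and H2ac1, a divergent pair of testis-specific H2B and H2A genes. Neither was in any of the 6 lists, which was true of 59.2% of all protein-coding genes. They were the 2 members found in no list. The nearest CHD4 peak lay 168 kb from H2bc1 in either state.

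Cluster 5 (chr3:96219885-96270192) held 3 groups with different peaks. H2ac21, H2ac20 and H2bc21 were in all 6 lists: CHD4 at the 97.1st and 87.5th percentiles, H3K4me3 at the 96.9th and 97.1st, and p300 at the 94.2nd and 17.5th. H3c15, H2ac19, H2ac18 and H3c14 lay under the H3K4me3 peak with the highest rank of any at members in proliferating cells (chr3:96236301-96249450, 13150 bp, 99.9th percentile). They were in no other list, H3K4me3 in neurons included. H4c14, H3c13 and H2bc18 carried H3K4me3 in both states with neuron CHD4 and neuron p300: for H4c14 the ranks were 84.4th and 85.2nd for H3K4me3, 86.9th for CHD4 and 21.6th for p300, and for H3c13 and H2bc18 97.0th and 73.1st, 97.7th and 21.5th. The neuron CHD4 peak at H3c13 and H2bc18 (12650 bp) and the proliferating H3K4me3 peak there (13650 bp) were the widest of their lists at members. Both ended at position 96280200 of chromosome 3, well beyond the end of H2bc18 at 96270192.

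CHD4 and p300 had the same 8 members in neurons only. CHD4 was listed in neurons only at H2bc23, H2ac23, H4c17, H4c18, H2ac24, H4c14, H3c13 and H2bc18 (12.7%, 5.65 to 23.5, against 2.45% of all genes), and p300 in neurons only at the same 8 (against 0.343% of all genes). All 8 carried H3K4me3 in both states. Several of the 8 lie under the same peaks, so they are not separate calls. Over the whole lists, 99.7% of neuron and 91.9% of proliferating p300 peaks overlapped a CHD4 peak of that state. CHD4 beside p300 is therefore not particular to these genes, although 20.0% of all neuron CHD4 peaks overlapped a p300 peak. CHD4 was listed in both states at 44 members (69.8%, against 7.49% of all genes) and in neither at 6 (9.52%, against 85.8% of all genes), namely H2bc1, H2ac1, H3c15, H2ac19, H2ac18 and H3c14. When the position of highest signal itself had to lie within 1 kb of a gene end, 26 members had CHD4 in both states (4.59% of all genes).

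For p300, 36 members were listed in proliferating cells only (57.1%, 44.0 to 69.5, against 7.54% of all genes) and 11 in both states (17.5%, against 0.896%). The 11 with p300 in both states were also the 11 members in all 6 lists (0.608% of all genes). For H3K4me3, 24 members were listed in both states (38.1%, against 29.4% of all genes), 15 in proliferating cells only (23.8%, against 8.21%) and 23 in neither (36.5%, against 61.8%). The 15 were H1f5, the 5 genes of cluster 2, H2bc6, H1f4, H4c1, H3c1 and H1f1 of cluster 3, and H3c15, H2ac19, H2ac18 and H3c14. With the H3K4me3 lists trimmed to equal size 7 of the members had the mark in proliferating cells only (3.02% of all genes), and with the stronger 50% of each list 4 did (5.97%).

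At histone genes CHD4 was often listed without H3K4me3. Of the 49 members with proliferating CHD4, 22 lacked H3K4me3 in that state (44.9%), against 13.4% of the 2575 genes with CHD4. In neurons 27 of 52 lacked it (51.9%), against 28.9% of 2177 genes. In proliferating cells 20 members had CHD4 and p300 without H3K4me3, a combination found at 0.790% of all genes, and 27 had all 3 (6.59% of all genes). The combination of CHD4 and H3K4me3 without p300 was found at 0 members, against 3.59% of all genes.

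H3K4me3 without CHD4 was listed at members in proliferating cells only. There 12 members carried H3K4me3 alone (19.0%, against 26.6% of all genes), and these 12, with H2bc1 and H2ac1, are the 14 members without proliferating CHD4. CHD4 lay at 27 of the 39 members with H3K4me3 (69.2%), while 27.1% of all genes with H3K4me3 carried CHD4. It lay at 22 of the 24 members without H3K4me3. CHD4 without H3K4me3 was thus found at 34.9% of all members, against 1.58% of all genes. In neurons all 25 members with H3K4me3 also carried CHD4, against 23.6% of all genes with H3K4me3, and 0 members carried H3K4me3 alone (22.9% of all genes). Neuron p300 lay at 19 of the 25 members with H3K4me3, against 2.65% of all genes with the mark. It lay at 0 of the 38 members without the mark. Neuron CHD4 and p300 without H3K4me3 was also rare over all genes (0.439%), so this 0 says little about the members. The largest neuron class was CHD4 alone, with 27 members (42.9%, against 2.44% of all genes).

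Counted as peaks instead of genes, CHD4 was still listed without H3K4me3 more often than at gene ends in general. In proliferating cells 13 CHD4 peaks at members overlapped no H3K4me3 peak and 9 did, against 367 and 1698 of all gene-end CHD4 peaks. In neurons the counts were 12 and 9, against 589 and 1087. Against the whole lists, which also hold peaks away from gene ends, the share without overlap was near in proliferating cells and lower in neurons. The peaks at members numbered 22 and 21 for CHD4 in proliferating cells and neurons, 15 and 9 for H3K4me3, and 23 and 7 for p300, and a single peak reached up to 5 members in each list. Of the 22 proliferating CHD4 peaks, 9 overlapped an H3K4me3 peak of that state (40.9%, 20.7 to 63.6), against 42.2% of the whole list, and of the 21 neuron CHD4 peaks 9 did (42.9%, 21.8 to 66.0), against 26.8%. For p300, 20 of the 22 proliferating CHD4 peaks overlapped a peak of that state (90.9%, 70.8 to 98.9), against 58.1% of the whole list. Of the 21 neuron CHD4 peaks 7 did (33.3%, 14.6 to 57.0), against 20.0%. All 7 neuron p300 peaks overlapped a neuron H3K4me3 peak, against 14.4% of the neuron p300 list. That list also holds peaks away from gene ends, and of the 271 genes with neuron p300 at an end 174 carried neuron H3K4me3. Between the states, 18 of the 22 proliferating CHD4 peaks overlapped a neuron CHD4 peak (81.8%, against 66.2% of the list), while 3 of the 23 proliferating p300 peaks overlapped a neuron p300 peak, a smaller share than the 23.5% of the list, although p300 in both states was above the share of all genes when genes were counted.

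CHD4 peaks that overlapped H3K4me3 were the wider ones at histone genes. In proliferating cells 9 such peaks had a median width of 6900 bp and 13 without overlap one of 3400 bp. Over all gene-end CHD4 peaks the order was the other way, with medians of 3250 bp for those that overlapped H3K4me3 and 4100 bp for those that did not. In neurons the medians at members were 8000 bp (9 peaks) and 3875 bp (12 peaks), against 5200 and 6550 bp. Wide peaks also reach more genes, and each of these medians rests on few peaks.

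**Figure D3:**
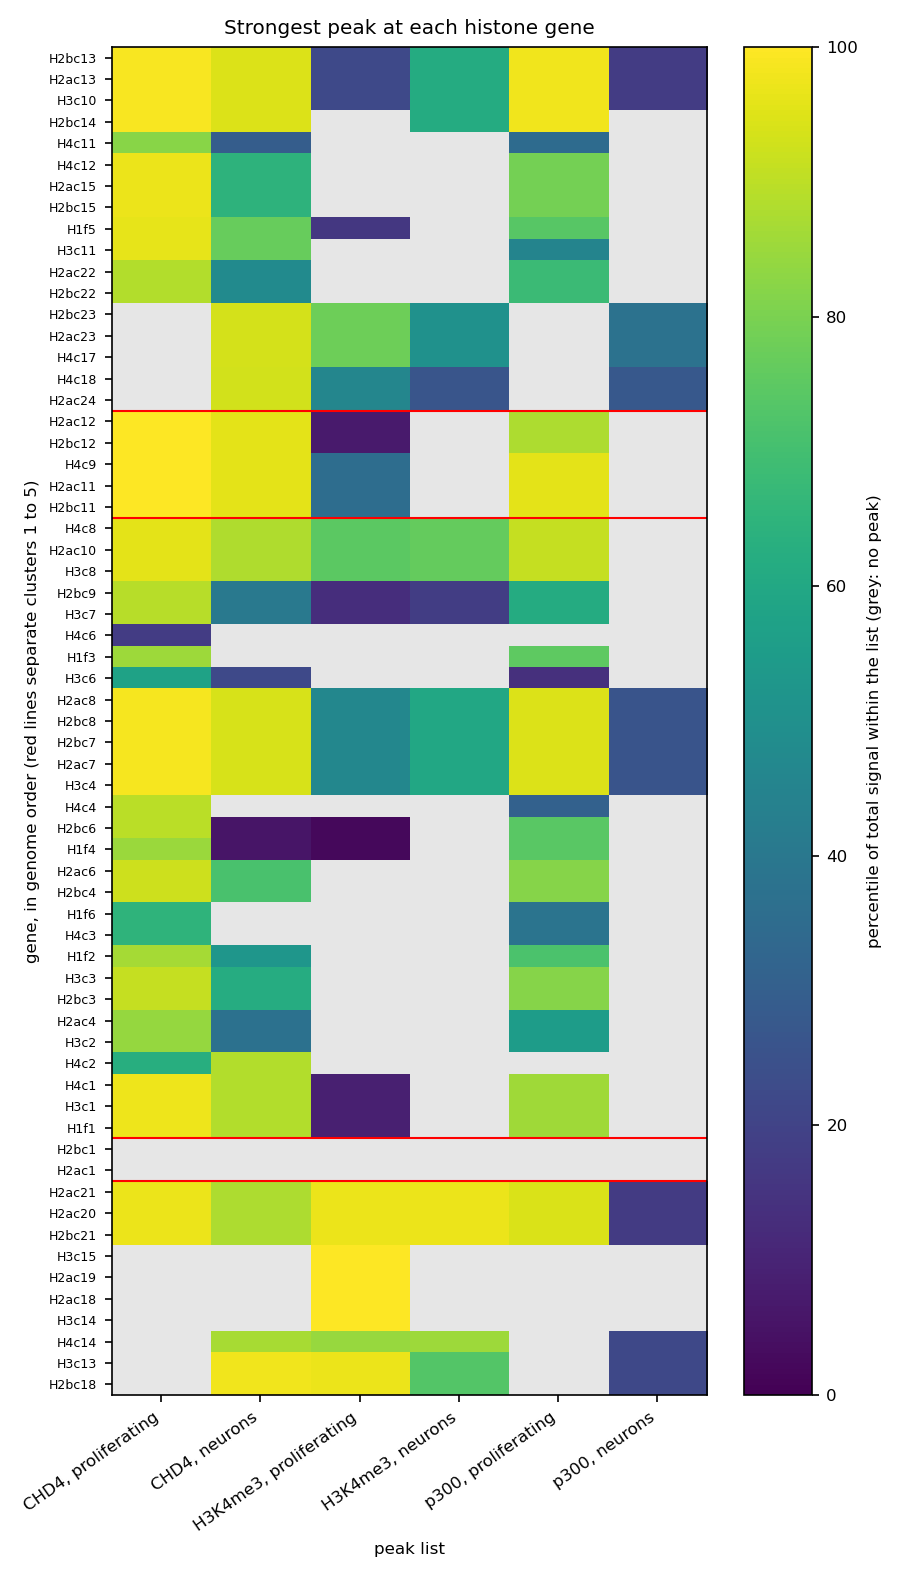
Percentile of total signal, within its own list, of the strongest peak at each of the 63 histone genes (rows, in genome order, red lines between clusters) in the 6 lists (columns); grey means no peak. CHD4 in proliferating cells ranks high across most of clusters 1 to 3 (H4c6 is lowest, at the 17.6th percentile), neuron p300 never passes the 37.7th percentile, and H3K4me3 ranks highest on chromosome 3 at the bottom.

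The CHD4 peaks at histone genes ranked high within their lists. The 22 proliferating CHD4 peaks had a median at the 89.5th percentile of total signal, against the 43.1st for all CHD4 peaks at gene ends, and 10 of them passed the 90th. In neurons the median was the 76.7th (gene-end peaks 47.0th). For proliferating p300 it was the 74.4th (48.2nd), and for neuron p300 the 21.6th (43.9th), with 0 of 7 peaks in the upper part of the list above the 50th percentile. With the stronger 50% of that list, p300 was accordingly listed at 0 members in neurons (0.493% of all genes).

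H3K4me3 peaks at histone genes ranked low by height on chromosome 13 and higher on chromosome 3. By total signal their medians were the 45.9th percentile in proliferating cells and the 61.5th in neurons, near those of all gene-end peaks (51.4th and 50.9th). By highest signal the medians were the 4.74th and the 3.98th. The 11 proliferating peaks of chromosome 13 ranked between the 0.161st and the 30.2nd percentile by highest signal, and the 4 of chromosome 3 between the 66.8th and the 97.1st. In neurons the 6 of chromosome 13 lay between the 0.889th and the 25.9th and the 3 of chromosome 3 between the 38.3rd and the 87.1st, so the ranges of the 2 chromosomes did not overlap in either state. Median widths at members were 5850 and 6400 bp, against 3700 and 4300 bp for the lists. CHD4 peaks kept a higher rank by highest signal, with medians at the 81.7th and 61.9th percentiles.

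By histone type, the linker histones had the lowest shares in the 3 neuron lists. All 6 H1 genes carried proliferating CHD4 and p300 (median ranks at the 86.0th and 74.2nd percentiles) and 4 carried neuron CHD4. H3K4me3 lay at 3 of them in proliferating cells, at ranks up to the 16.4th percentile, and neither H3K4me3 nor p300 was listed at any H1 gene in neurons. H2A genes carried CHD4 at 12 and 14 of 17, H3K4me3 at 12 and 8, and p300 at 12 and 7, in proliferating cells and neurons. H2B genes carried CHD4 at 13 and 15 of 16, H3K4me3 at 10 and 8, and p300 at 13 and 6. H3 genes carried CHD4 at 9 and 10 of 12, H3K4me3 at 8 and 5, and p300 at 9 and 3. H4 genes carried CHD4 at 9 in both states, of 12, H3K4me3 at 6 and 4, and p300 at 7 and 3. With so few genes per type the intervals of the types overlap, as the plot of shares by type shows.

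H2A and H2B genes are often paired head to head, sharing 1 stretch of promoter DNA. There were 9 such divergent pairs among genes of known strand, with 163 to 280 bp (median 179) between the genes. H2ac6 with H2bc4 (239 bp apart) and H2ac20 with H2bc21 (191 bp) could not be oriented and were not counted. Every counted pair had a peak at both genes or at neither in each of the 6 lists. Both genes carried CHD4 in 7 pairs in proliferating cells and 8 in neurons, H3K4me3 in 6 and 4, and p300 in 7 and 4. Because the gap is far smaller than the window, a peak at 1 gene of a pair almost always reaches the other.

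The signal was highest close to the histone gene starts, and usually downstream of them. The position of highest signal lay at a median distance of 158 bp from the nearest member start for proliferating CHD4 and of 134 bp for neuron CHD4, against 316 and 632 bp for all gene-end CHD4 peaks. For p300 the medians were 158 and 84.0 bp (gene-end peaks 286 and 2976 bp), and for H3K4me3 246 and 205 bp (170 and 278 bp). Members are mostly short and lie close together, so a peak at either end of a member is usually near a start by construction. Gene-end peaks also include those at the far ends of long genes, so these distances are not like for like. In the promoter window, from 250 bp before to 50 bp after a start, lay 22.7% and 25.0% of the CHD4 positions in proliferating cells and neurons. For gene-end CHD4 peaks the shares were higher, at 35.1% and 28.9%. For H3K4me3 they were 14.3% and 12.5% (gene-end peaks 30.8% and 21.6%), and for p300 39.1% and 33.3% (34.1% and 17.5%). The shares at members rest on few peaks. For proliferating CHD4, 17 of 22 peaks were highest downstream of the start and 5 upstream, all within 1 kb. Downstream was not always inside the gene: at H1f2, 725 bp long, the position lay 868 bp from the start. The position counted as 826 bp upstream of H4c1 lay within H3c1, whose start is not in the promoter table. In neurons 15 of the 20 whose nearest gene had an annotated start were highest downstream. CHD4 and p300 shared the same 50-bp position of highest signal in 7 of the 22 proliferating CHD4 peaks (26.0% of the list) and 4 of the 21 neuron ones (11.4%). The proliferating H3K4me3 peak at H3c13 and H2bc18 was highest 8476 bp from the start of H2bc18.

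**Figure D4:**
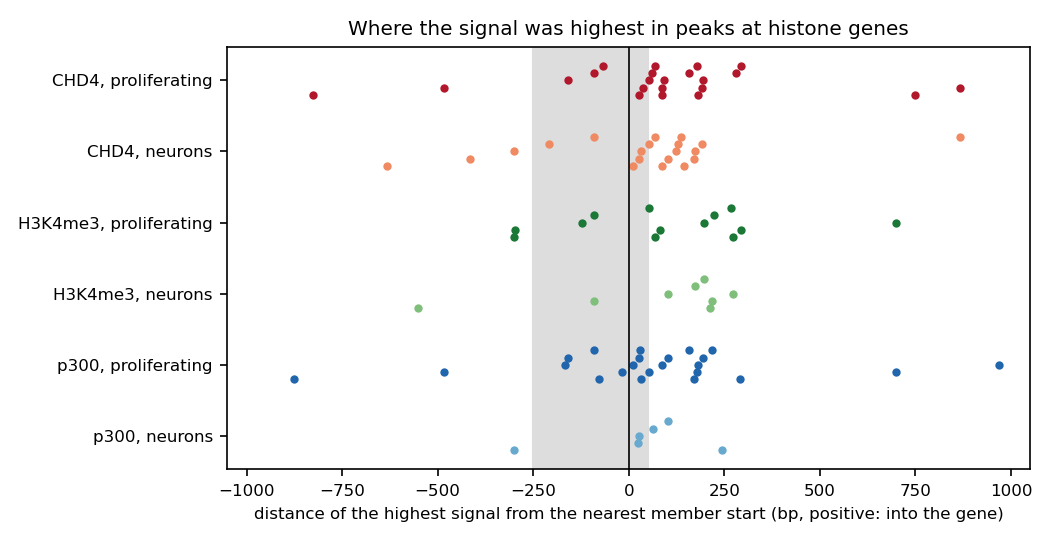
Distance in bp of the position of highest signal from the nearest histone gene start in the promoter table (x axis, positive downstream) for each peak at a member. Points, spread vertically to be seen, are peaks and rows are the 6 lists. The grey band is the promoter window from 250 bp before to 50 bp after the start. Most points lie just to the right of the start; the H3K4me3 peak 8476 bp away and the peaks at H4c14, whose start is not in the promoter table, are not drawn.

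The members without proliferating CHD4 included the near-identical gene copies. Among the 58 promoter windows the longest runs of identical sequence were 285 bp between H4c17 and H4c18, 231 bp between H3c15 and H3c14, 219 bp between H2ac19 and H2ac18 and 200 bp between H2ac23 and H2ac24, and the next was 72 bp, between H4c11 and H4c12. These 8 genes are among the 12 that carried H3K4me3 alone in proliferating cells. Another of the 12, H2bc23, has a window identical over all 300 bp to that of H4bc24, a neighbouring gene whose symbol falls outside the rule (chr13:21833743-21837530) and which lay in the same 4 lists as H2ac24. Of the 49 members with proliferating CHD4, 45 had a window in the table and 0 of these shared a run of at least 150 bp, the length of a read, with another member. H3c13 and H2bc18, which had CHD4 in neurons only, shared no such run. Of the near-identical copies, those on chromosome 13 carried neuron CHD4, H3K4me3 and p300, and those on chromosome 3 were in no neuron list. The sources used here do not give the handling of reads that match several places. Its part in the absence of proliferating CHD4 and p300 from these copies, or of neuron peaks from those on chromosome 3, was not tested.

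Some peaks at members ended at the same base in several lists. The 4 peaks over H4c18 and H2ac24 (H3K4me3 in both states, neuron CHD4 and neuron p300) all ended at position 21835400 of chromosome 13. Between any pair of the 6 lists, 3.65% to 9.27% of overlapping peaks ended at the same position. For peaks at members the share ran from 0% to 28.6% (2 of 7, neuron H3K4me3 with neuron p300). These shares rest on only 3 to 23 overlaps for each pair of lists. The positions run in steps of 50 bp, and why the ends coincide was not tested.

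Distance set few of the calls. The peak covered a gene end for 48 of the 49 members with proliferating CHD4 and for 51 of the 52 with neuron CHD4. Just inside the 1 kb window were H1f6 for proliferating CHD4 (806 bp), H4c12 for neuron CHD4 (748 bp), H1f1 (768 bp), H1f6 (806 bp) and H3c4 (513 bp) for proliferating p300, and H3c4 for neuron p300 (863 bp). Just outside were H2bc14 (1344 bp), H3c11 (1515 bp) and H4c2 (2415 bp) for proliferating H3K4me3, H4c2 for proliferating p300 (2465 bp) and H2bc14 for neuron p300 (2444 bp). The nearest unlisted member lay 15879 bp from a CHD4 peak in proliferating cells and 3318 bp in neurons.

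At genes elsewhere in the genome that make and process histone RNA, most of the peaks were of H3K4me3. Of 22 genes of the histone mRNA pathway, H3K4me3 lay at 18 in proliferating cells and 15 in neurons (37.6% and 30.0% of all genes), CHD4 at 7 and 4 (11.8% and 9.95%), and p300 at 5 and 0 (8.44% and 1.24%). CHD4 was listed in both states at Slbp (the stem-loop binding protein; 16.9th and 23.7th percentiles), Srrt (34.6th and 1.84th), Pou2f1 (the octamer-binding factor; 48.2nd and 44.7th) and Cdk2 (46.5th and 11.9th). It was listed in proliferating cells only at Lsm10 (a U7 snRNP subunit; 26.4th), Yy1 (10.7th) and Ccne2 (cyclin E2; 38.6th). Npat carried H3K4me3 in both states (84.2nd and 84.0th) and no CHD4 or p300.

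Histone chaperones, which carry histones to DNA, gave similar counts. Of 18, H3K4me3 lay at 17 and 14 (37.6% and 30.0% of all genes), CHD4 at 8 and 5 (11.8% and 9.95%) and p300 at 6 and 1 (8.44% and 1.24%). CHD4 was listed in both states at Asf1b (61.6th and 27.0th percentiles), Rbbp4 (a histone-binding subunit of CAF-1 and NuRD; 61.0th and 10.3rd), Daxx (an H3.3 chaperone; 85.2nd and 64.4th), Ssrp1 (a FACT subunit; 44.9th and 16.5th) and Hjurp (the CENP-A chaperone; 41.7th and 96.5th). In proliferating cells only it was listed at Chaf1b (a CAF-1 subunit; 26.6th), Nasp (9.35th) and Hira (10.4th).

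Of 13 replication-independent histone genes, H3K4me3 lay at 11 in proliferating cells and 10 in neurons (37.6% and 30.0% of all genes), CHD4 at 7 and 4 (11.8% and 9.95%), and p300 at 6 and 0 (8.44% and 1.24%). CHD4 was listed in both states at H2ax (the damage-signalling H2A; 68.5th and 7.87th percentiles), H2az1 (71.5th and 67.9th), Macroh2a1 (91.7th and 85.0th) and H3f3b (an H3.3 gene; 87.1st and 8.0th). In proliferating cells only it was listed at H1f0 (the linker histone of resting cells; 24.7th), H1f10 (68.9th) and H2az2 (54.6th). No gene of these 3 lists carried CHD4 in neurons only, whereas 8 of the clustered members did, and the lists are too small for the difference to be read further.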

How the data were processed

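CUT&Tag peak lists for CHD4, H3K4me3 and p300 in proliferating iMOPs and iMOP-derived neurons were used, 1 library for each, as grouped by the labels. Reads were pairs of 150 bp, per the labels' protocols. Bowtie2, deepTools, SEACR and mm10 are named, without versions, per the submitters' processing notes. Total and highest signal are values the authors deposited; their scaling, thresholds, pooling and use of IgG are not given in the sources used here. Signal was therefore used only to rank peaks within a list, and total signal favours wide peaks.

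Genes and promoters came from RefSeq tables for GRCm38.p6. Counts, ranks and exact (Clopper-Pearson) 95% intervals were computed in Python 3.11.15 (pandas 2.3.3, numpy 2.4.6, SciPy 1.17.1), and figures drawn with matplotlib 3.10.9. A shared 1 bp made an overlap. The search was tested on simulated data and recovered 200 of 200 planted peaks. All but 6 coordinates are multiples of 50 bp. Members, gene lists and markers were chosen with earlier results of these data known. Genes were named by rule: members with CHD4 in 1 state only, with p300, or with H3K4me3 that differed between states or was absent, the strongest and widest peaks, and genes of the other lists with CHD4. Further members were named to account for each cluster. A planned comparison of histone protein sequences was not run. The 6 alternatives were windows of 0.5 and 2.5 kb, the stronger 50% of each list, lists of equal size, the position of highest signal in the window, and transcript starts only.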

Additional observations from a re-analysis of the deposited data

How the results depend on the processing

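Under 6 other settings the counts of members with CHD4 ranged from 34 to 49 in proliferating cells and from 36 to 52 in neurons, those with proliferating p300 from 35 to 48, and those with CHD4 in neurons only from 7 to 10, all within 1.5 times the value reported. The stronger 50% of each list gave 16 members with proliferating H3K4me3 against 21 with neuron H3K4me3, which turns their order, 0 with neuron p300, 14 with CHD4 in proliferating cells only and 4 with H3K4me3 in proliferating cells only. Lists of equal size gave 7 for the last of these. Requiring the position of highest signal in the window gave 25 members with proliferating H3K4me3 (32.1% of all genes) and 16 with neuron H3K4me3 (24.2%). The neuron H3K4me3 count is then close to the share of all genes. That setting gave 26 members with CHD4 in both states (4.59%) and 8 with CHD4 in proliferating cells only (3.82%). Windows of 0.5 and 2.5 kb and transcript starts moved no count by more than 1.5 times. Of the genes themselves, 6 of the 8 members with CHD4 in neurons only (H2bc23, H2ac23, H2ac24, H4c14, H3c13 and H2bc18) and 3 of the 5 with CHD4 in proliferating cells only (H1f3, H4c4 and H4c3) kept their class under the 5 settings that did not use transcript starts. So did 16 of the 44 with CHD4 in both states, 19 of the 36 with p300 in proliferating cells only, 2 of the 15 with H3K4me3 in proliferating cells only, and 0 of the 8 with p300 in neurons only. Read depth is unknown, each group is 1 library, and the IgG libraries were not analysed here, so a gene absent from a list cannot be told apart from one below the threshold of that list.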
